A study of Mus musculus with 40 samples.

Results

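The genes described here carry the symbols atpA to atpH, the usual names for the subunits of the bacterial F-type ATP synthase. They were taken by symbol alone, after removal of a copy number such as _1, from the count tables of 5 gut bacteria which the data name F. rodentium, L.bacterium335, Acetatifactor, D. muris and X. muris. The rule found 38 genes among 16742 features: 8 in each of the first 4 bacteria and 6 in X. muris, whose table held atpA to atpF. In F. rodentium the 8 included atpH_1 and atpH_2 and no atpE.

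The RNA came from the cecal contents of C57BL/6 mice. All of them started at 3 weeks of age on the Total Western Diet, which copies the nutrient intake of people on a Western diet, and ate it for 6 weeks. For 3 more weeks they ate it plain (0%) or with broccoli powder at 0.5%, 1% or 2.5% of the diet, which gave 4 groups of 10 libraries. Bacterial ribosomal RNA was depleted before library preparation. The comparisons address how broccoli in the diet goes with the transcripts of each bacterium, and no result here is about RNA of the mouse.

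The ATP synthase sits in the bacterial membrane and couples the flow of protons or sodium ions to the making of ATP. Its soluble F1 part holds subunits alpha (atpA) and beta (atpD), which form the catalytic head, gamma (atpG), the central shaft, delta (atpH), which ties the head to the stator, and epsilon (atpC), which restrains ATP hydrolysis. Its membrane part Fo holds subunit a (atpB), the ion channel, c (atpE), the rotating ring, and b (atpF), the stator stalk. In fermenting bacteria of the gut, the enzyme often runs in reverse, spending ATP to pump ions out of the cell. Annotation also gives atp symbols to the related V-type ATPases of some bacteria, so a symbol alone does not tell these enzymes apart, and product names were not used here.

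Depth set what could be measured. Per library and bacterium, total counts ranged from 15726 to 246887 in Acetatifactor, from 3108 to 172785 in D. muris, from 161 to 4882829 in F. rodentium, from 18763 to 814317 in L.bacterium335 and from 1759 to 289125 in X. muris. Libraries under 10000 counts on a bacterium were left out of its fit, which kept 10, 10, 10 and 8 libraries of F. rodentium (0%, 0.5%, 1% and 2.5%), 9, 9, 10 and 9 of D. muris, and 7, 7, 10 and 9 of X. muris. Both other bacteria kept all 40. At 0%, the counts lay on few features: the 5 most counted ones, none of them an atp gene, held a median of 76.3% of the L.bacterium335 counts, 55.7% of the Acetatifactor counts and 89.8% of the X. muris counts, against 15.4% in F. rodentium and 11.6% in D. muris. At 2.5%, these medians were 9.11%, 11.3%, 51.4%, 14.8% and 5.08%. Levels are given as CPM, the counts of a library scaled with TMM factors to a common total within 1 bacterium, so they measure a gene against the rest of the same bacterium. Fewer cells of a bacterium and less RNA per cell cannot be told apart.

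Single libraries at 2.5% stood apart from their group. Replicate 9 held 2 atp counts among 101772 on L.bacterium335, and replicate 8 held 0 atp counts among 28575 on Acetatifactor, where 3 counts, or 0.0105% of them, is the share that a count of 0 allows. In these libraries 708 of 4661 L.bacterium335 features and 663 of 4440 Acetatifactor features had any count, against 3175 or more and 2450 or more in the other 2.5% libraries. Values with and without each of them are given below.

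Relative to the rest of each bacterium, the tested ATP synthase genes of L.bacterium335 were higher at each broccoli dose than at 0%, and those of Acetatifactor were higher at 1% and 2.5%, with 1 of 4 higher at 0.5%. Those of F. rodentium, D. muris and X. muris did not pass the test at any dose. Many other genes of both bacteria were higher too, as the shares given below show. Of the 38 genes, 27 passed the filter on low counts and were tested. A gene nearly absent at 0% can pass that filter only through the broccoli groups, where it is then bound to be higher, so the counts of called genes below describe the tested genes and say nothing of the rest.

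**Figure D1:**
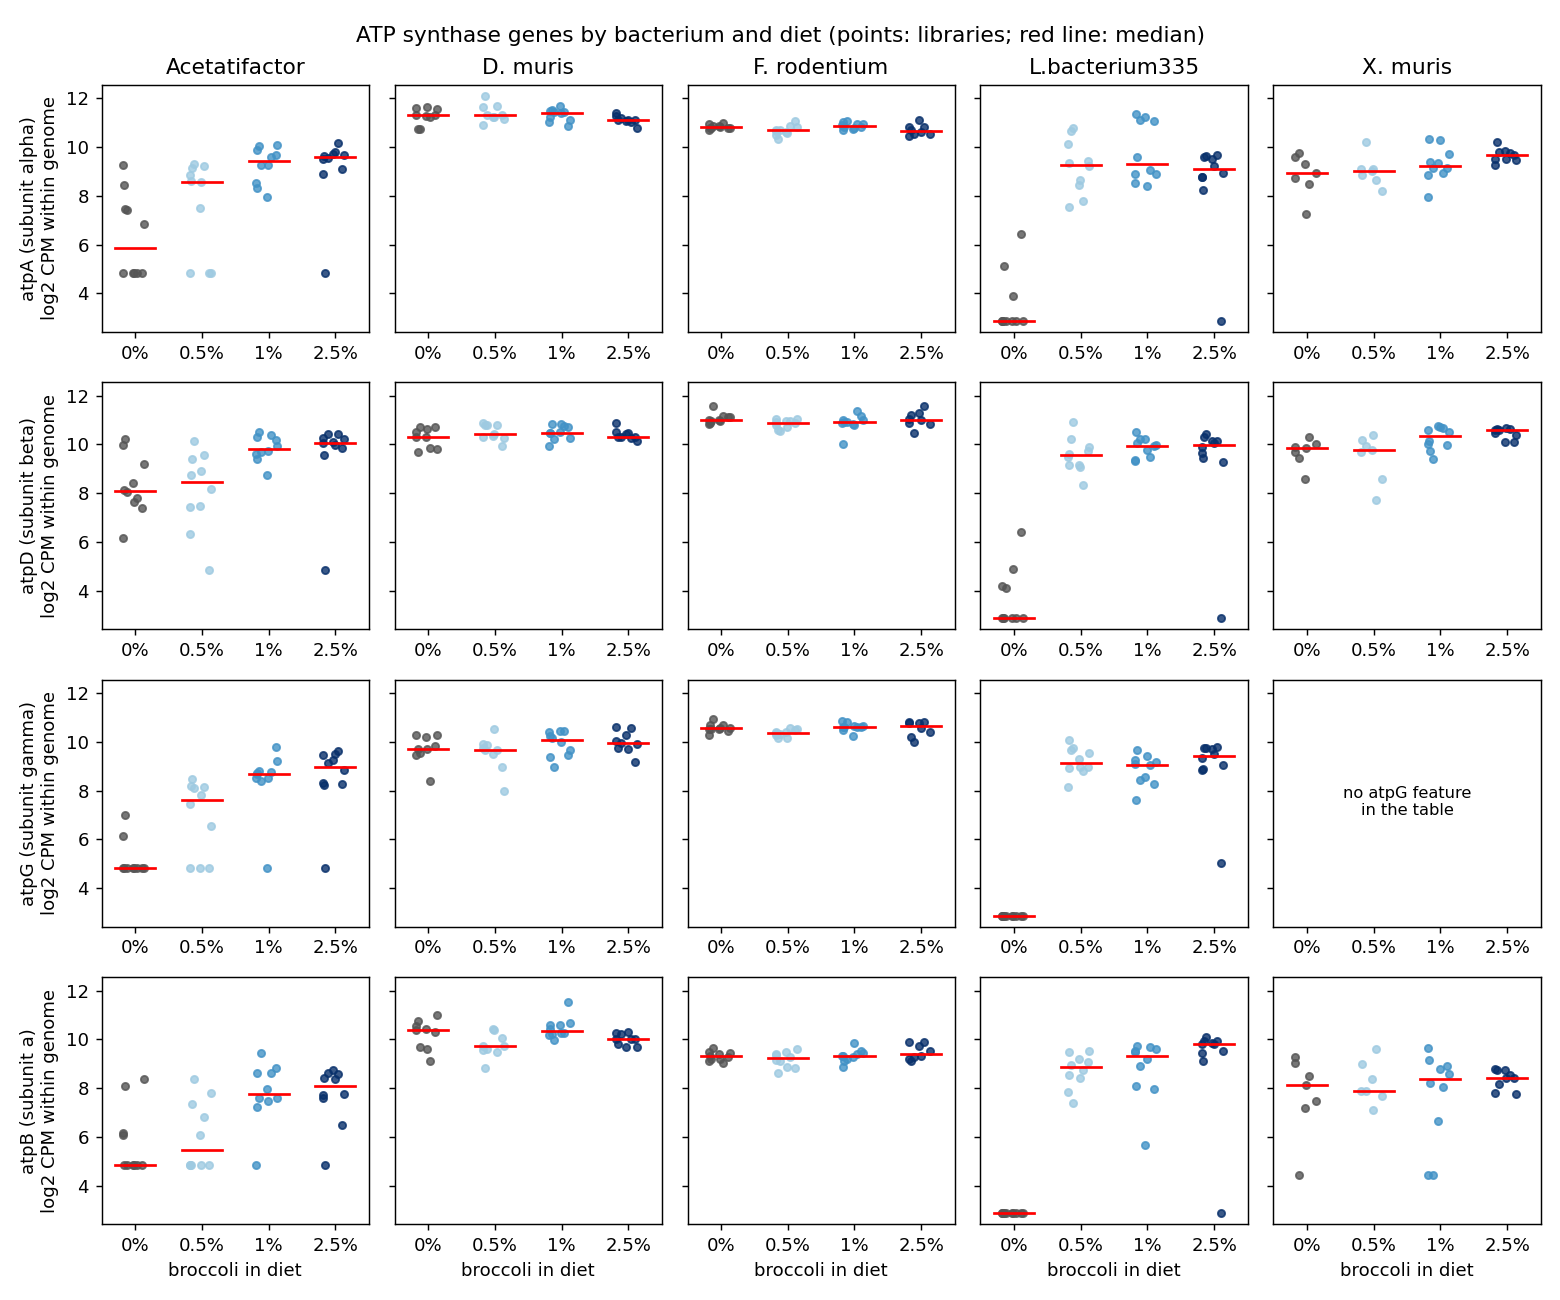
Log2 CPM within each bacterium (vertical axis, prior count of 2) of atpA, atpD, atpG and atpB by percent of broccoli in the diet, 1 point per library kept in the fit and a red line at the group median. The lowest row of points in a panel is libraries with 0 counts. In L.bacterium335 every 0% library lies at or near that floor, in F. rodentium and D. muris the 4 groups overlap, and 1 library at 2.5% lies at or near the floor in L.bacterium335 and in Acetatifactor.

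In L.bacterium335, catalytic and membrane subunits alike had few or no counts at 0% and were higher with broccoli. For beta (atpD), the 10 libraries at 0% held 9 counts in all, between 0 and 4 each. At 0.5% each library held 13 to 256 counts (median 47), at 1% 32 to 400 (median 117.5) and at 2.5% 0 to 1495 (median 690.5). In CPM, the atpD level was 12.1 ± 24.3 at 0% (SD, n = 10), 839 ± 461 at 0.5%, 971 ± 271 at 1% and 897 ± 399 at 2.5%. Every 0.5% and 1% library lay above every 0% library, and at 2.5% only replicate 9, with 0 counts, did not. How many other genes of this bacterium were separated in this way was not counted. Of its 1384 tested genes, 903 had 0 counts in every 0% library.

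The fitted log2 fold change of atpD in L.bacterium335 was 6.16 ± 0.73 (standard error) at 0.5%, 6.37 ± 0.73 at 1% and 6.26 ± 0.73 at 2.5% (edgeR quasi-likelihood test, adjusted p = 4.4e-12, 1.5e-12 and 2.1e-12). Alpha (atpA) had 6 counts over all 0% libraries, in replicates 7, 8 and 9. Its level was 11.3 ± 25.0 CPM at 0%, 752 ± 563 at 0.5%, 1223 ± 965 at 1% and 532 ± 259 at 2.5%, with medians of 0, 613, 644 and 537. At 1%, replicates 2, 6, 9 and 10 were at 2159 to 2584 CPM and the other 6 libraries at 332 to 767. Its log2 fold change against 0% was 6.41 ± 0.81, 7.11 ± 0.82 and 5.93 ± 0.80 (edgeR, adjusted p = 4.8e-11, 2.3e-12 and 2.8e-10). Alpha and beta form the same catalytic head, and both were called higher at each dose, as were 79.4%, 78.4% and 77.8% of all tested genes of this bacterium.

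Gamma, delta, a and b (atpG, atpH, atpB, atpF) had 0 counts in all 10 libraries at 0%, so only a lower bound on their change can be given, taking 3 counts in all 10 libraries together as the floor. At 2.5%, atpB summed to 6261 counts, at least 234-fold higher than at 0%, and atpG to 5133 counts, at least 192-fold higher. The delta gene atpH was at least 126-fold higher and the stalk gene atpF at least 25.8-fold higher. At 0.5% the bounds were 158-fold for atpB, 178-fold for atpG, 119-fold for atpH and 39.2-fold for atpF. At 1% they were 195-fold, 165-fold, 128-fold and 25.5-fold. These bounds and the intervals below cover counting error only and rest on the TMM scaling.

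Per library, atpB of L.bacterium335 ranged from 160 to 735 CPM at 0.5% (median 456), from 43.8 to 839 at 1% (median 640) and from 0 to 1093 at 2.5% (median 886). For atpG the range was 275 to 1066 CPM at 0.5% (median 554), 187 to 809 at 1% (median 527) and 25.0 to 882 at 2.5% (median 676). No broccoli library lay within the 0% range for atpG, since replicate 9 at 2.5% held its 2 counts there. That range was 0 counts only, as it was for 903 of the 1384 tested genes. For atpH the medians were 513, 504 and 458 CPM, and for atpF 124, 83.6 and 76.2 CPM, with 1 library at 0 in atpF at 0.5%.

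All 6 tested atp genes of L.bacterium335 were called higher at each dose (edgeR, adjusted p at most 1.5e-08). At 2.5% against 0.5%, 0 of 6 were called, with log2 fold changes from -0.89 ± 0.56 (atpF) to 0.75 ± 0.53 (atpB) and 0 of 6 at an unadjusted p under 0.05. The share of the bacterium's tested genes called higher was 79.4% at 0.5%, 78.4% at 1% and 77.8% at 2.5%, so a call was the rule in this bacterium. At 2.5% against 0.5%, 0.723% of genes were called higher and 12.5% lower, and this comparison turned on the scaling: with RLE in place of TMM factors, 6 of 6 atp genes were called higher (7 of 8 by DESeq2), among 1092 genes higher and 19 lower, and the median of all tested genes went from 0.14 to 2.64. At 2.5% against 0%, RLE factors gave 1147 genes higher and 33 lower, where TMM factors gave 1077 and 208. With genes absent at 0% placed at their bound, the median log2 fold change at 2.5% was 6.62 over the 6 atp genes. Over all 1384 tested genes, of which 903 had 0 counts at 0%, it was 5.30. Such a bound grows with the counts at 2.5%. With fitted values in place of bounds, these medians were 8.64 and 7.94. The fitted changes of atpA (5.93), atpD (6.26) and atpF (7.47) lay below 7.94, and those of atpB, atpG and atpH above it. As a share of all counts on L.bacterium335, which needs no scaling factor, the 8 atp genes held 0.0025% ± 0.0043 at 0% (SD, n = 10), 0.235% ± 0.089 at 0.5%, 0.336% ± 0.118 at 1% and 0.472% ± 0.230 at 2.5%.

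Without replicate 9 of 2.5%, the log2 fold change at 2.5% was 6.41 ± 0.55 for atpD and 6.11 ± 0.70 for atpA of L.bacterium335, the bounds were 235-fold for atpB, 193-fold for atpG, 127-fold for atpH and 25.9-fold for atpF, and 6 of 6 genes were called. Replicate 9 of 0% held 4 counts each of atpA and atpD. Without it, atpA had 2 counts at 0% and stood 230-fold higher at 2.5% by summed counts, atpD had a log2 fold change of 7.12 ± 0.78, and both stayed called.

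Acetatifactor also counted few atp transcripts at 0%, and all 4 tested subunits were higher at the upper doses. For gamma (atpG), 8 of 10 libraries at 0% had no count and the group summed to 3. The sums were 79 at 0.5%, 321 at 1% and 680 at 2.5%. Scaled to the counts on the bacterium, these were 17.01 times (95% counting interval 5.61 to 84.3), 32.8 times (11.1 to 160.1) and 36.8 times (12.5 to 178.8) the level at 0%. The differences passed the test at each dose (edgeR, adjusted p = 0.0057, 0.00012 and 1.7e-05). In CPM, the highest 0% library reached 98.3, and the medians with broccoli were 171 at 0.5%, 386 at 1% and 481 at 2.5%. The groups overlapped, because 3 libraries at 0.5% and 1 each at 1% and 2.5% had no atpG count.

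For alpha (atpA) of Acetatifactor, the level was 127 ± 191 CPM at 0% (SD, n = 10; 0 to 582, median 42.8), 299 ± 243 at 0.5% (0 to 600, median 352), 654 ± 302 at 1% (218 to 1056, median 672) and 673 ± 297 at 2.5% (0 to 1109, median 748). Its log2 fold change was 1.31 ± 0.71 at 0.5% (edgeR, adjusted p = 0.16), 2.38 ± 0.71 at 1% (adjusted p = 0.0050) and 2.42 ± 0.71 at 2.5% (adjusted p = 0.0028). Of the 2.5% libraries, 9 of 10 lay above the 0% mean and replicate 8 had no count. Without replicate 1 of 0%, which held 15 of the 28 atpA counts of its group, the change at 2.5% was 3.56 ± 0.82 (edgeR, adjusted p = 0.00033).

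Subunit a (atpB) of Acetatifactor was at 62.7 ± 113 CPM at 0% and 75.0 ± 104 at 0.5%, then at 262 ± 192 at 1% and 232 ± 134 at 2.5%. It was called at 1% (log2 fold change 2.04 ± 0.78, edgeR adjusted p = 0.020) and at 2.5% (1.90 ± 0.77, adjusted p = 0.023). Beta (atpD), with 42.7 to 1180 CPM among the 0% libraries (median 245), had a median of 332 at 0.5%, 877 at 1% and 1053 at 2.5%. Its log2 fold change of 1.22 ± 0.56 at 1% and 1.28 ± 0.56 at 2.5% passed narrowly (edgeR, adjusted p = 0.048 and 0.034). At 0.5% its change was 0.02 ± 0.55 (adjusted p = 0.98).

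The calls in Acetatifactor came to 1 of 4 tested genes at 0.5%, 4 of 4 at 1% and 4 of 4 at 2.5%, in a bacterium where 21.6%, 49.5% and 54.5% of all tested genes were called higher and 3.49%, 18.2% and 22.5% lower. The median log2 fold change over all 773 tested genes at 2.5% was 1.81. The atpD change lay below that median and the atpB change 0.10 above it. At 2.5% against 0.5%, 0 of 4 were called, with 1.42% of all tested genes called higher, and each log2 fold change lay between 1.11 ± 0.65 (atpA) and 1.48 ± 0.64 (atpG), with unadjusted p under 0.05 in 3 of 4. With RLE factors 4 of 4 were called in that comparison (8 of 8 by DESeq2), among 289 genes higher and 13 lower, where TMM factors gave 11 and 60. At 2.5% against 0%, RLE factors gave 543 genes higher and 21 lower, where TMM factors gave 421 and 174. The same split was 362 and 8 against 167 and 27 at 0.5%, and 479 and 8 against 383 and 141 at 1%. The count at 2.5% fell to 2, atpA and atpG, when replicate 6 or replicate 7 of 0% was left out. Without replicate 8 of 2.5%, all 4 were called, with log2 fold changes of 2.72 ± 0.72 (atpA), 2.16 ± 0.79 (atpB) and 1.56 ± 0.55 (atpD) and a ratio of 49.5 for atpG, and the median of all tested genes was 2.13.

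**Figure D2:**
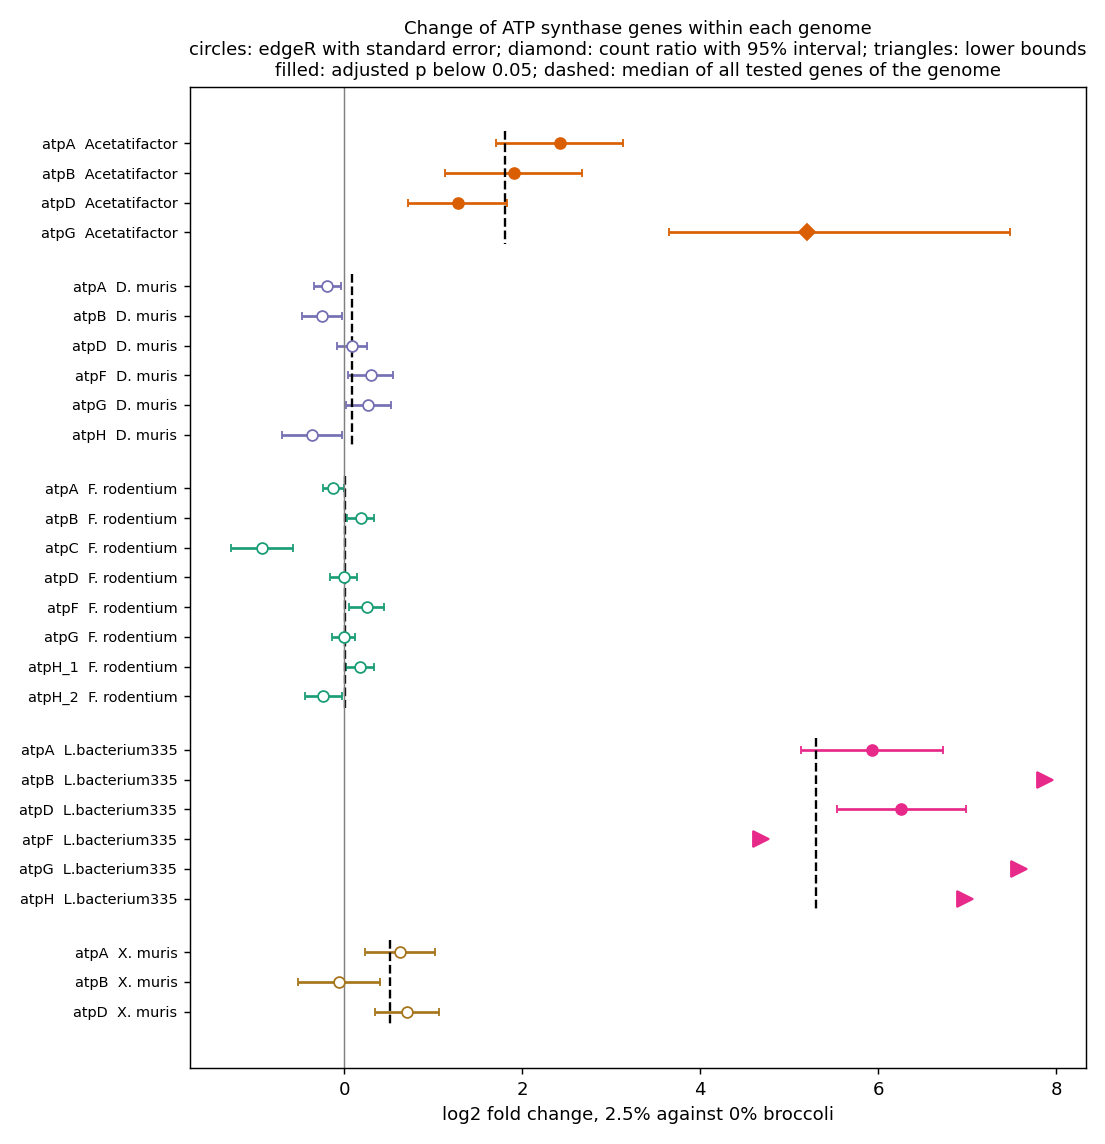
Log2 fold change at 2.5% against 0% broccoli of each tested atp gene (horizontal axis), by bacterium. Circles are edgeR values with standard errors, the diamond is the count ratio of Acetatifactor atpG with its 95% counting interval, triangles are lower bounds for genes with 0 counts at 0%, filled symbols are called genes, and dashed lines are the median of all tested genes of the bacterium, bounds included. The 4 genes of Acetatifactor and the 6 of L.bacterium335 are filled, and the 17 of the other bacteria are open and lie between -0.92 and 0.70.

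F. rodentium gave the most precise values, with 852 to 11143 atp counts per library at 0%. Its alpha gene atpA was at 1824 ± 115 CPM at 0% (SD, n = 10; 1646 to 2024), 1662 ± 242 at 0.5%, 1879 ± 157 at 1% and 1675 ± 259 at 2.5% (n = 8; 1383 to 2193). Its beta gene atpD was at 2158 ± 351 CPM at 0%, 1851 ± 217, 1930 ± 409 and 2143 ± 485, and gamma (atpG) at 1538 ± 197, 1319 ± 134, 1573 ± 179 and 1526 ± 313. The 4 groups overlapped for each of these genes.

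At 2.5% the log2 fold changes of F. rodentium were -0.12 ± 0.12 for atpA (95% interval -0.36 to 0.12), -0.01 ± 0.15 for atpD (-0.30 to 0.28) and -0.01 ± 0.13 for atpG (-0.27 to 0.25). A doubling or a halving, which is 1 on this scale, lay outside these 3 intervals. The membrane genes atpB and atpF and the delta copies atpH_1 and atpH_2 had changes from -0.24 ± 0.21 (atpH_2) to 0.25 ± 0.20 (atpF), none called. Reads of both atpH copies may have been split between them, which makes their separate values uncertain.

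None of the 8 F. rodentium genes was called at 0.5%, 1% or 2.5% against 0%, or at 2.5% against 0.5%, in comparisons where 8.47%, 0.474%, 9.41% and 3.37% of all tested genes were called (edgeR). By unadjusted p under 0.05, the counts were 0, 0, 1 and 2 of 8. With RLE in place of TMM factors, genes called higher and lower went from 60 and 83 to 78 and 72 at 0.5% and from 91 and 68 to 111 and 45 at 2.5%, with none of the 8 among them. At 0.5%, all 10 libraries lay below the 0% mean for atpD, atpF and atpG, by log2 fold changes of -0.22 ± 0.14, -0.24 ± 0.18 and -0.22 ± 0.12 (adjusted p = 0.37, 0.45 and 0.30), and the groups overlapped. The 0% means include single libraries at 3038 CPM (atpD) and 401 (atpF). The highest 0.5% libraries lay above the 0% medians: 2118 against 2043 CPM for atpD, 217 against 209 for atpF and 1519 against 1494 for atpG. How many other genes lay below their 0% mean in this way was not counted. Epsilon (atpC), the subunit that restrains ATP hydrolysis, stood furthest from 0 at 2.5%. Its level was 107 ± 27.8 CPM at 0% (57.4 to 149), 91.3 ± 18.4 at 0.5%, 92.3 ± 56.1 at 1% and 55.7 ± 55.2 at 2.5% (0 to 164), or -0.92 ± 0.35 on the log2 scale (edgeR, adjusted p = 0.086). Of 8 libraries at 2.5%, 7 lay below the 0% mean and 2 had no count, and the value passed the threshold without replicate 2 (-1.14, adjusted p = 0.035). The other 7 genes of the same bacterium had log2 fold changes between -0.24 and 0.25.

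The 2 libraries of 2.5% left out of the F. rodentium fit, replicates 6 and 9, held 161 and 352 counts on this bacterium and 0 and 1 atp counts. The 8 genes together held 0.693% ± 0.033 of the F. rodentium counts at 0% (SD, n = 10), 0.618% ± 0.063 at 0.5%, 0.690% ± 0.046 at 1% and 0.764% ± 0.067 at 2.5% (n = 8). The share stayed between 0.501% and 0.856% in every library kept.

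In D. muris, 0 of 6 tested genes were called at 0.5%, 1%, 2.5% and at 2.5% against 0.5%, where 4.96%, 6.23%, 10.6% and 0.451% of all tested genes were called (edgeR). By unadjusted p under 0.05, the counts were 0, 0, 0 and 1. Its alpha gene atpA was at 2508 ± 554 CPM at 0% (SD, n = 9), 2733 ± 740 at 0.5% (n = 9), 2545 ± 426 at 1% (n = 10) and 2207 ± 257 at 2.5% (n = 9), and beta (atpD) at 1252 ± 332, 1455 ± 314, 1440 ± 284 and 1338 ± 218. At 2.5% the changes ran from -0.37 ± 0.34 for atpH (95% interval -1.03 to 0.29) to 0.30 ± 0.25 for atpF (-0.20 to 0.79). Subunit a (atpB) was lowest at 0.5%, at 867 ± 294 CPM against 1223 ± 473 at 0%, with a log2 fold change of -0.46 ± 0.23 (adjusted p = 0.35). The 8 genes held 0.619% ± 0.091 of the D. muris counts at 0% and 0.655% ± 0.059 at 2.5%.

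X. muris was the shallowest bacterium at 0%, and 3 of its 6 genes were tested. The beta gene atpD was at 847 ± 277 CPM at 0% (SD, n = 7; 366 to 1242), 806 ± 408 at 0.5% (n = 7), 1248 ± 378 at 1% (n = 10) and 1405 ± 204 at 2.5% (n = 9; 1074 to 1609). All 9 libraries at 2.5% lay above the 0% mean, and the groups overlapped. Its log2 fold change at 2.5% was 0.70 ± 0.36 (95% interval 0.0047 to 1.40), which did not pass (edgeR, adjusted p = 0.21). Alpha (atpA) was at 504 ± 244 CPM at 0% and 807 ± 165 at 2.5%, a change of 0.63 ± 0.39 (adjusted p = 0.32), with 9 of 9 libraries above the 0% mean. Subunit a (atpB) had a log2 fold change of -0.06 ± 0.46 (adjusted p = 0.93). The median over all 670 tested genes of X. muris was 0.51 at 2.5%. Of these genes, 0% were called higher at 0.5%, 5.37% at 1%, 9.55% at 2.5% and 1.04% at 2.5% against 0.5%, with 0%, 1.19%, 1.49% and 2.99% called lower, and 0 of 3 atp genes in each. By unadjusted p under 0.05, the counts of atp genes were 0, 0, 1 and 1. RLE factors gave 22 genes higher and 10 lower at 1% (36 and 8 with TMM), 32 and 13 at 2.5% (64 and 10) and 17 and 17 at 2.5% against 0.5% (7 and 20).

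The 11 genes that did not pass the filter were epsilon and c (atpC and atpE) of Acetatifactor, D. muris, L.bacterium335 and X. muris, atpF of Acetatifactor and X. muris, and atpH of Acetatifactor. All had low counts. In L.bacterium335, atpC summed to 0 counts at 0%, 16 at 0.5%, 45 at 1% and 192 at 2.5%, and atpE to 0, 6, 11 and 50. In Acetatifactor, atpF summed to 7, 20, 103 and 249 counts, atpH to 6, 35, 158 and 301, atpC to 3, 11, 53 and 115, and atpE to 14, 7, 48 and 172. These are raw sums that also follow the depth on the bacterium. In X. muris, atpC, atpE and atpF summed to 4, 7 and 3 counts at 0% and to 106, 94 and 124 at 2.5%. In D. muris, atpC summed to 5 and 42 and atpE to 29 and 69 at 0% and 2.5%.

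Whether bacteria differed was tested within libraries, on the difference of log2 CPM of a same-named gene in 2 bacteria, compared between 2.5% and 0% (two-sided permutation test, exact where a group had under 10 libraries, adjusted over 40 pairs of bacteria and genes). Of the 40 pairs, 26 differed. L.bacterium335 was part of 17 of them, out of 18 pairs with it, its gene having the larger change each time. A rise was fixed for all 6 of its tested genes, which passed the filter through the broccoli groups alone, so these pairs are a description. Its atpB, atpF, atpG and atpH had 0 counts in every 0% library. Its atpA and atpD summed to 6 and 9 counts over the 0% libraries, with at most 4 in any library. The pair with L.bacterium335 that did not differ was atpA beside Acetatifactor, with changes of 4.97 and 2.73 on the log2 CPM scale (adjusted p = 0.082). The L.bacterium335 values depend on the prior count of 2, since most 0% libraries had no count, and its median change over all tested genes was larger than that of the other bacteria too.

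Of 11 pairs that set Acetatifactor against a bacterium other than L.bacterium335, 6 differed. Its atpG changed by 3.497 against 0.28 in D. muris (exact permutation test, adjusted p = 0.00072) and by 3.30 against -0.03 in F. rodentium (adjusted p = 0.00091). With 3 counts over all 0% libraries, this atpG passed the filter through the broccoli groups alone. Its rise was thus fixed, and its pairs are a description. The atpA of Acetatifactor changed by 2.56 against -0.16 in D. muris (adjusted p = 0.0099) and by 2.65 against -0.13 in F. rodentium (adjusted p = 0.0099). The atpB of Acetatifactor differed from both as well. At 0%, atpA had 28 counts and none in 5 of 10 libraries, and atpB 14 counts and none in 6 of 10. Both genes thus needed the broccoli groups to pass the filter, and their pairs are a description too. The atpD of Acetatifactor differed from neither: by 0.88 from D. muris (adjusted p = 0.25) and by 1.20 from F. rodentium (adjusted p = 0.16). The number of pairs that differed turned on the scaling: with RLE factors, all 11 pairs differed, atpD included.

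Between the 3 bacteria in which no gene was called, 3 of 11 pairs differed, each with X. muris higher. They were atpA against D. muris (0.81 against -0.16, exact permutation test, adjusted p = 0.016), atpA against F. rodentium (0.79 against -0.10, adjusted p = 0.016) and atpD against F. rodentium (0.83 against -0.07, adjusted p = 0.0050). Medians over all tested genes at 2.5% were 0.51 in X. muris, 0.08 in D. muris and 0.01 in F. rodentium. With RLE factors 0 of these 11 pairs differed, so the X. muris differences held with TMM factors and not with RLE factors. D. muris and F. rodentium were compared in 5 genes and differed in 0. The differences in D. muris minus F. rodentium ran from -0.34 in atpB (adjusted p = 0.22) to 0.30 in atpG (adjusted p = 0.33).

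The bacterium that supplied the atp transcripts changed with diet. Over the 5 tables, F. rodentium held 95.2% ± 3.30 of all atpD counts at 0% (SD, n = 10; 88.7 to 97.7), 87.0% ± 10.4 at 0.5%, 56.1% ± 31.99 at 1% and 15.7% ± 14.1 at 2.5% (0 to 38.9). The ranges at 0% and 2.5% did not overlap. Nor did those of its share of all counts of the 5 tables, 38.6% to 93.0% at 0% and 0.0195% to 32.2% at 2.5%. L.bacterium335 held 0.097% ± 0.146, 4.83% ± 4.62, 19.5% ± 18.3 and 40.8% ± 19.1. At 2.5% the rest came from Acetatifactor (17.8% ± 22.9), X. muris (16.1% ± 10.8) and D. muris (9.56% ± 5.77), which had held 0.838%, 0.750% and 3.10% at 0%. In replicate 9 of 2.5%, Acetatifactor held 79.6% of only 93 atpD counts, and the median of its share at 2.5% was 11.9%.

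These shares follow both the share of each bacterium in all counts and its atpD level. F. rodentium held 72.9% of all counts of the 5 tables at 0% and 10.9% at 2.5%, below its share of atpD at both doses. L.bacterium335 held 14.3% of all counts at 0% and 51.2% at 2.5%, and a smaller share of atpD at both. For the channel subunit atpB, the L.bacterium335 share at 2.5% was 59.8% ± 23.2, and for atpA it was 33.2% ± 15.8. The shares describe how counts were divided among 5 tables, with no correction for gene length, and not the amount of any bacterium.

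**Figure D3:**
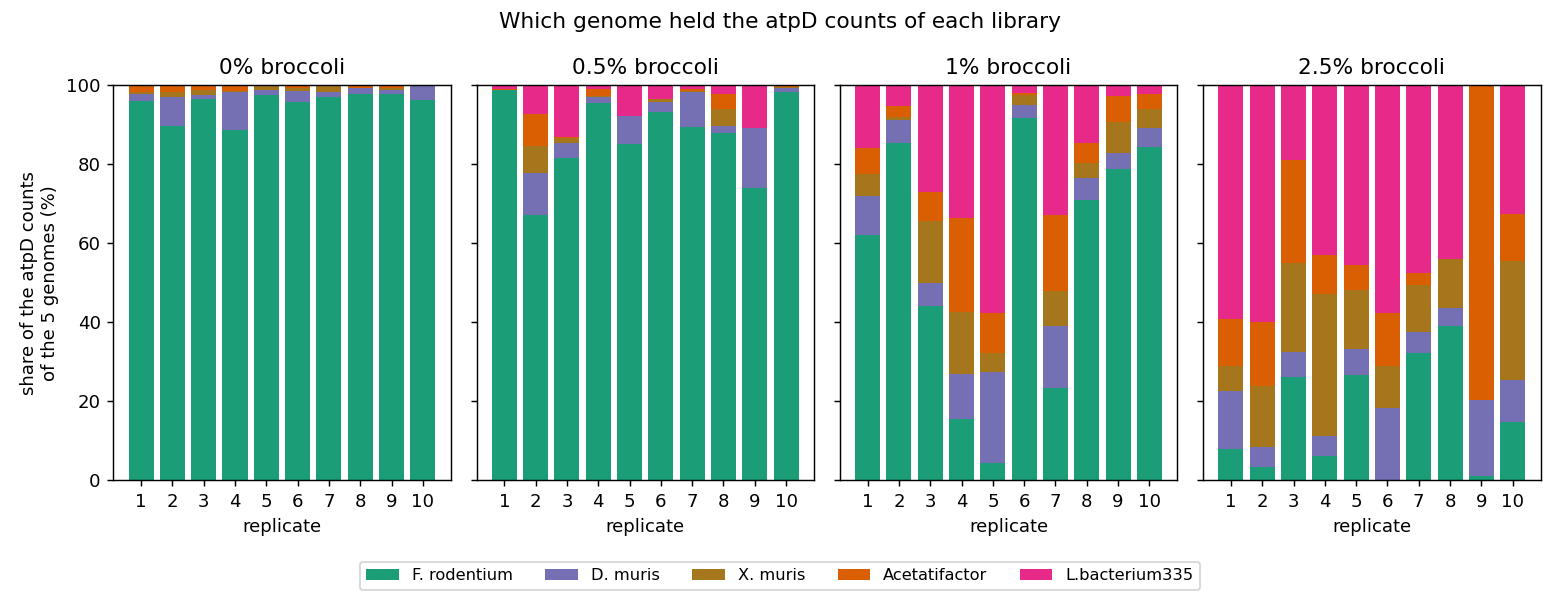
Share of the atpD counts of each library (vertical axis, percent) that lay on each of the 5 bacteria, by replicate within each diet group. F. rodentium holds 88.7% or more in each 0% library and 38.9% or less in each 2.5% library, and libraries at 1% range from 4.47% to 91.5%.

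Counts of atpB beside those of atpA in L.bacterium335 varied between libraries. In libraries with at least 20 counts of atpA and atpB together, atpB made up 54.9% to 67.4% of both in the 9 libraries at 2.5% (median 59.8%), but 1.80% to 66.2% in the 10 libraries at 1% (median 56.5%) and 8.33% to 66.7% in the 10 at 0.5% (median 49.0%). At 1%, replicate 6 held 109 counts of atpA and 2 of atpB, which is 1.80% (exact 95% binomial interval 0.219 to 6.36). Replicates 10, 9 and 2 held 9.35%, 10% and 17.6%, with intervals that ended at 27.4% or below. At 0.5%, replicates 2, 1 and 8 held 8.33%, 16.7% and 23.2%. The other libraries of both groups held 43.5% or more.

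The gap was not particular to atpB. In these 4 libraries of 1%, counts per count of atpA were 0.44 to 0.57 for atpD, against 1.33 to 2.61 in the other 6, and 0.072 to 0.16 for atpG, against 0.99 to 2.03. For atpH they were 0.39 to 0.64 against 0.71 to 0.96. These were the libraries with the highest atpA levels of the group. In the 4 low libraries of 1%, 28.5% to 37.5% of L.bacterium335 features had a count, against 53.6% to 77.6% in the other 6, and their total counts on the bacterium were 50630 to 80917 against 70529 to 511927. At 0.5%, replicate 1, with a low share, had the fewest features detected of its group, 28.7%. Replicates 2 and 8, also with low shares, had 38.4% and 40.1% detected. Replicates 10 and 7, with 36.9% and 37.6% of features detected, had atpB shares of 66.7% and 45.5%. These 2 shares rest on few counts: 8 of atpA and 16 of atpB in replicate 10, and 12 and 10 in replicate 7. The part of depth in the low shares was not tested. In other bacteria the same share lay between 17.4% and 34.2% (F. rodentium), 8.79% and 60.9% (D. muris), 10.4% and 53.6% (Acetatifactor) and 11.1% and 77.3% (X. muris) over all libraries with enough counts, so a wide range was not particular to L.bacterium335.

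**Figure D4:**
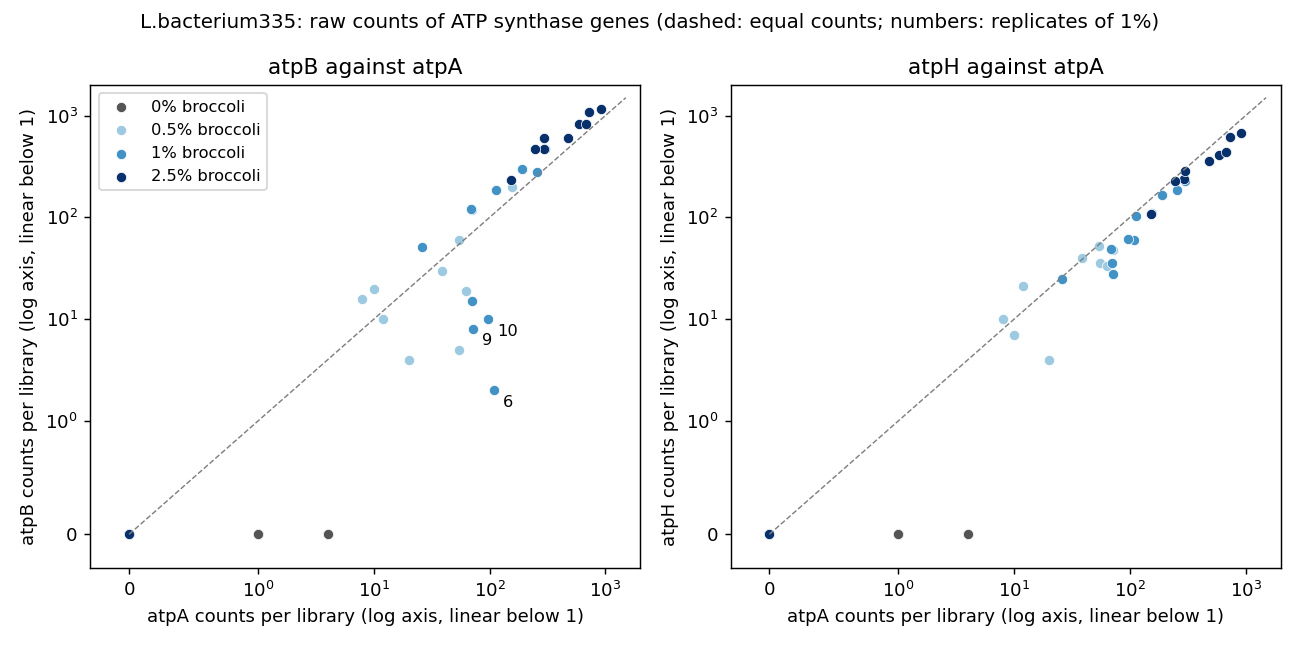
Raw counts per library on L.bacterium335 of atpB (left, vertical axis) and atpH (right, vertical axis) against atpA (horizontal axis), on log axes that are linear below 1, coloured by diet. The dashed line marks equal counts and is a guide only, since gene length is not corrected for. At 2.5% the 9 libraries with counts lie above the line for atpB, while replicates 6, 9 and 10 of 1%, labelled by number, lie far below it, and for atpH the gap between libraries is smaller.

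Other genes of ion pumping and electron transfer were read from a list of symbols. The list also held ppaC, a soluble pyrophosphatase that pumps no ions. In D. muris, 16 of 20 were tested and 1 was called at 2.5%, where 10.6% of all tested genes were called and 3.88% were higher. This was nqrB, a subunit of the sodium-pumping NADH dehydrogenase, higher by 1.49 ± 0.43 (log2, edgeR adjusted p = 0.017), at 425 CPM against 154. In L.bacterium335, 4 of 6 were tested and all 4 were higher, where 77.8% of all tested genes were. With 0 or 1 count at 0%, these 4 passed the filter through the broccoli groups alone. These were oadA, of the sodium-pumping oxaloacetate decarboxylase, with 1 count at 0% and 12284 at 2.5% (ratio 1379.5, 95% counting interval 248 to 54493), and rnfD, rnfG and rnfC, of an ion-pumping ferredoxin oxidoreductase, at least 25.8-fold, 26.2-fold and 23.1-fold higher. In Acetatifactor, 3 of 8 were tested, where 54.5% of all tested genes were called higher and 22.5% lower. The inorganic pyrophosphatase ppaC was higher by 2.82 ± 0.75 (edgeR, adjusted p = 0.0011). For sdhA of succinate dehydrogenase there were 2 counts at 0% and 399 at 2.5% (ratio 32.4, 8.90 to 268), so it passed the filter through the broccoli groups alone. The gene oadA had a log2 fold change of -1.33 ± 0.41 (adjusted p = 0.0041), lower at 2.5%. In F. rodentium 0 of 2 and in X. muris 0 of 1 tested genes were called.

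A list of 15 housekeeping symbols (RNA polymerase, gyrase, elongation factors, chaperones) gives the setting of the same bacteria at 2.5%. In L.bacterium335, 14 of 14 tested were higher, where 77.8% of all tested genes were. Their median log2 fold change with bounds was 6.31, beside 6.62 for the atp genes. With 0 counts at 0%, 8 of these 14 passed the filter through the broccoli groups alone and were bound to be higher. In Acetatifactor, 10 of 14 were higher and 1 lower, with a median of 2.60 beside 2.16, where 54.5% of all tested genes were higher and 22.5% lower. In D. muris 2 of 14 and in F. rodentium 1 of 17 were lower and none higher, and in X. muris 0 of 11 were called. Of all tested genes, 6.68% were lower and 3.88% higher in D. muris, and 4.03% and 5.39% in F. rodentium. In X. muris 1.49% were lower and 9.55% higher.

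Within each bacterium, genes were ranked by the correlation of their log2 CPM over libraries with the atp gene of highest mean level. These are descriptions over libraries that share diet groups and depth. In L.bacterium335, atpD went most closely with ilvB_3 (Pearson r = 0.97, 40 libraries), pckA, fusA_2, atpH and atpA, and in Acetatifactor with glgP (0.87, 40 libraries), smc_2, yesX, pgk and atpA. Spearman's rho was 0.79 for ilvB_3 and 0.81 for glgP. In F. rodentium, where atp levels varied little, atpD went most closely with pta (0.71, Spearman's rho 0.62, 38 libraries), btuD_3, rpoC, ftsX_2 and gpmA_1, and its correlation with atpF was 0.59, with atpB 0.54, with atpG 0.52, with atpA 0.41 and with atpH_1 -0.25. In D. muris, atpA went most closely with gltD_2 (0.64, Spearman's rho 0.66, 37 libraries), xylA, mro_2, gcvPA and apgM, and its correlations with the other atp genes ran from -0.21 (atpB) to 0.41 (atpD). In X. muris, atpD went most closely with gdhA (0.73, Spearman's rho 0.47, 33 libraries), infB, rplE, scpA and dnaN, and its correlations with atpA and atpB were 0.31 and 0.14.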

How the data were processed

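RNA of cecal contents was sequenced in 40 libraries. Per the labels' protocols, QIAseq FastSelect removed bacterial ribosomal RNA, and the Roche KAPA RNA HyperPrep kit was used for the libraries. The authors deposited raw counts per feature in 6 tables, 1 per bacterium. The sources used here do not give the aligner, the genome builds or the handling of reads shared between bacteria or gene copies. Product names, lengths and coordinates of bacterial genes were not used. Where counts of 2 genes are set against each other, no correction for length was made, so such a ratio can be read between libraries but not as a difference in level between the genes.

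Groups came from the treatment label. The labels do not say whether each library is 1 mouse, so p-values measure the spread between these samples. The members and gene lists were chosen with earlier results of these data known.

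Each bacterium was fitted alone (edgeR 4.0.16, limma 3.58.1, R 4.3.3): libraries with at least 10000 counts on it, filterByExpr, TMM factors, the quasi-likelihood test over 4 groups, and Benjamini-Hochberg adjustment over all tested features with a threshold of 0.05. In X. muris 5 stable RNA features, at most 0.336% of its counts, were left out. Standard errors were the log2 fold change divided by the square root of F, and 95% intervals follow from them. Log2 CPM used a prior count of 2. Genes with 0 counts at 0% were given a bound from 3 counts over the group. The fits were tested on simulated data. No 2 libraries held identical columns.

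All genes with symbols atpA to atpH were accounted for. From the ion list, up to 4 called genes per bacterium were named by smallest p, and 5 genes by likeness. Alternatives were RLE factors, DESeq2 1.42.0, no filter, no or a 50000-count library minimum, the 5 most counted features left out, leaving out libraries numbered 76 to 81, and leaving out each library in turn.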

Additional observations from a re-analysis of the deposited data

Results flagged for a closer look

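Of 108 sets of libraries (1 gene in 1 bacterium and diet group), 21 had a library that lay far from the rest of its group. Chance gives about 5% for independent sets of normally distributed values. These sets shared libraries, and some values lay at the floor of 0 counts, so an excess over 5% was not measured. Values are log2 CPM, with the nearest other library second. In L.bacterium335, replicate 9 of 2.5% was lowest in all 6 tested genes: at 2.87, the value of 0 counts, for atpA (nearest 8.22), atpB (9.13), atpD (9.29), atpF (5.78) and atpH (8.11), and at 5.02 for atpG (8.83). In the same bacterium, atpB of 1% replicate 6 was at 5.68 (7.95). In Acetatifactor, replicate 8 of 2.5% was at 4.85, its value of 0 counts, for atpA (8.89), atpD (9.55) and atpG (8.23), as were atpB in 1% replicate 1 (7.21) and atpG in 1% replicate 6 (8.41).

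In D. muris, atpB was at 11.51 in 1% replicate 9 (nearest 10.67), atpD at 10.88 in 2.5% replicate 1 (10.50), atpG at 8.39 in 0% replicate 4 (9.45) and atpH at 5.10 in 0% replicate 3 (7.46). In F. rodentium, atpC was at 1.74 in 1% replicate 5 (4.94), atpD at 11.57 in 0% replicate 2 (11.18) and at 9.99996 in 1% replicate 5 (10.78), atpF at 8.66 in 0% replicate 4 (7.89) and atpH_2 at 4.69 in 2.5% replicate 4 (7.41).

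The change of log2 CPM at 2.5% against 0% differed between bacteria in 26 of 40 pairs (permutation tests). Pairs with L.bacterium335 or with atpA, atpB or atpG of Acetatifactor are descriptions. These genes had too few counts at 0% to pass the filter without the broccoli groups. As first minus second bacterium, L.bacterium335 minus X. muris was 4.50 in atpA, 6.20 in atpB and 5.30 in atpD. D. muris minus L.bacterium335 was -5.68 in atpA, -7.04 in atpB, -6.17 in atpD, -3.42 in atpF, -6.25 in atpG and -5.85 in atpH. F. rodentium minus L.bacterium335 was -5.69 in atpA, -6.66 in atpB, -6.24 in atpD, -3.40 in atpF and -6.53 in atpG. Acetatifactor minus L.bacterium335 was -4.23 in atpB, -4.26 in atpD and -2.73 in atpG.

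Acetatifactor minus D. muris was 2.71 in atpA, 2.30 in atpB and 3.22 in atpG, and Acetatifactor minus F. rodentium was 2.78, 1.78 and 3.33 in the same genes. D. muris minus X. muris was -0.97 in atpA. F. rodentium minus X. muris was -0.89 in atpA and -0.90 in atpD.

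In the Alistipes table, which no comparison above uses, atpD summed to 30 counts and atpE to 37 in the 10 libraries at 2.5%, of 161531 counts on that bacterium, and to 0 of 1620 at 0%.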

How the results depend on the processing

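No paired analysis was possible because the labels carry no replicate number that links libraries of different diets. The counts of called atp genes depended on the scaling, the tool and the filter mainly in Acetatifactor. There, 0.5% against 0% gave 2 genes with RLE factors (atpA, atpG), 3 with DESeq2 (atpA, atpG, atpH) and 2 with the 5 most counted features left out (atpG, atpH), against 1. At 1% against 0%, DESeq2 and the unfiltered fit each gave 7, and at 2.5% against 0% they gave 8 and 7, against 4, since both also tested the genes that had not passed the filter. At 2.5% against 0.5%, RLE factors gave 4 and DESeq2 8 in Acetatifactor, 6 and 7 in L.bacterium335, and DESeq2 gave 1 in X. muris (atpD), all higher, against 0. DESeq2 called 1 gene lower in F. rodentium at 2.5% against 0% (atpC). Except where a filter or the set of tested genes differs by construction, the cause was not tested. With RLE factors, the median change of all tested genes at 2.5% (log2) went from 1.81 to 3.84 in Acetatifactor, from 7.94 to 9.20 in L.bacterium335, from 0.51 to 0.25 in X. muris and from 0.01 to 0.12 in F. rodentium.

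Values near 0 that were not called changed sign. In F. rodentium at 2.5%, atpD was 0.093 with RLE factors and 0.10 with DESeq2, and atpG 0.092, 0.11 and, without libraries 76 to 81, 0.039. In X. muris, atpB was 0.27 without the filter and 0.066 without the library minimum. Leaving out 1 library gave -0.096 to 0.092 for F. rodentium atpD, -0.053 to 0.069 for atpG and -0.26 to 0.38 for X. muris atpB. It gave 1 to 2 called genes in Acetatifactor at 0.5% (2 without 0% replicate 1), 2 to 4 at 2.5%, and 0 to 1 in F. rodentium at 2.5%. The atpD call of Acetatifactor at 2.5% was lost in 7 of 40 such fits (adjusted p up to 0.059) and its atpB call in 2. In L.bacterium335, 6 genes stayed called against 0% at each dose in all 40 fits. Between bacteria, a 50000-count minimum left 5 pairs, all 5 with L.bacterium335 and all called, and RLE factors called 28 of 40, 23 of them among the 26: 17 of 18 pairs with L.bacterium335, 11 of 11 further pairs with Acetatifactor (6 before) and 0 of 11 pairs among the other 3 bacteria (3 before). That minimum left no 0% library in Acetatifactor, D. muris and X. muris. Leaving out the 5 most counted features left too few 0% libraries in X. muris. No comparison against 0% was made in these fits, and only 2.5% against 0.5% was compared. Libraries 76 to 81 were unevenly spread over diets: without them, L.bacterium335 kept 10, 6, 9 and 9 libraries (0%, 0.5%, 1% and 2.5%). At 2.5% against 0.5%, its genes called lower then went from 173 of 1384 to 17 of 1675. In F. rodentium at 0.5% against 0%, genes called higher and lower went from 60 and 83 to 19 and 21. The labels do not say what sets these libraries apart, and the cause was not tested. Low counts at 0% limit every fold in L.bacterium335, Acetatifactor and X. muris.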
